A study of Mus musculus with 6 samples.

Results

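The 6 genes described here encode enzymes that build a pair of sugar structures on the surface of migrating and neural cells, the HNK-1 epitope and polysialic acid. They are B3gat1, B3gat2, B3gat3, Chst10, St8sia2 and St8sia4, found by symbol in the probe-to-gene table of the array, and they stand for 6 of the 19057 genes named there. They have 19 of the 45281 probes. The set was put together because B3gat1 was high in crest, so every difference between crest and mesoderm among the 6 genes is given as a description and without a test. Expression was measured in GFP-sorted cells of mouse embryo heads, taken at embryonic day 9.5, on 3 arrays of cranial neural crest and 3 arrays of cranial mesoderm. The crest cells came from a cross of Wnt1-Cre with Z/EG and the mesoderm cells from a cross of Mesp1-Cre with Z/EG, both on the mixed strain background C57Bl/6 x 129 x ARC/s. Z/EG is a reporter that makes GFP once Cre has cut it, so GFP marks every descendant of a cell in which the Cre was active, whatever that cell has become. Wnt1-Cre is active in the dorsal neural tube and midbrain as well as in crest, and Mesp1-Cre marks early mesoderm and, among its descendants, vessels and blood. No group without a Cre was hybridized in the samples used here. The design text says that replicates were isolated independently, without saying whether they came from different litters, and p-values measure only the spread between these arrays.

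HNK-1 is a glucuronic acid with a sulfate, added to the end of a galactose and N-acetylglucosamine chain. B3gat1 and B3gat2 encode the glucuronyltransferases that add the sugar, and Chst10 encodes the sulfotransferase that completes the epitope. An antibody to it is a classic marker of migrating crest cells in the chick. B3gat3 encodes a relative that adds glucuronic acid to the sugar stem joining heparan and chondroitin sulfate chains to proteoglycans, a step that most cells need. Polysialic acid is a long chain of sialic acid residues, carried mainly by the neural cell adhesion molecule, and it lowers adhesion between cells. St8sia2 and St8sia4 encode the enzymes that polymerize it.

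The labelled cell types were checked against defining genes. Sox10 and Tfap2b, factors of crest, were higher in crest by 4.93 ± 0.37 and 4.77 ± 0.43 log2 units (SE of the limma fit, n = 3 per group, adjusted p = 4.31e-05 and 1.19e-04). Crest had at least 6.97-fold more Wnt1, the gene whose enhancer drives the Cre of that sort (adjusted p = 2.24e-04). Wnt1 passed the detection filter, described below, through its 3 crest arrays alone, so its p is given as a description. Wnt1 is counted below among the dorsal neural tube and midbrain genes. Tbx1, Msc and Twist2, of head mesoderm, were lower in crest, Tbx1 at least 12.3-fold, Msc by a difference of -3.69 ± 0.33 and Twist2 by -3.45 ± 0.41. Twist1, the factor named in the title of the series, was detected on all 6 arrays, and its difference of 0.95 ± 0.32 had an adjusted p of 0.0753. Foxd3 and Erbb3, both used as crest markers, were detected on no array. Of the 7 migratory crest genes tested, 4 were called higher in crest, Sox10 and Tfap2b among them. Another of the 4, Tfap2a, was tested through its 3 crest arrays alone, as it was detected on no mesoderm array. Sox9 (0.51, limma adjusted p = 0.227), Ets1 (0.37, adjusted p = 0.554) and Ngfr (1.01, adjusted p = 0.0583) were not, and were detected on every array of both groups. Of the 3 mesoderm arrays, replicate 2 stood nearest to crest. Its correlation with the crest arrays across probes was 0.956 to 0.963 (Pearson's r of log2 values), against 0.926 to 0.951 for mesoderm replicates 1 and 3. The differences below are therefore also given without mesoderm replicate 2 where that array matters.

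Values are log2 intensities after background correction and quantile normalization, unless raw intensities are named. A probe counts as detected on an array when its signal exceeds all but 5 in 100 of the array's negative controls, that is, at a detection p under 0.05. A gene was tested when a probe of it was detected on at least 3 of the 6 arrays, and is represented by the brightest such probe. Levels of different probes cannot be compared with each other. Of the 19 probes of the 6 genes, 7 passed this filter and 11 were detected on no array. The 7 belong to B3gat1, B3gat3 and St8sia4. Chst10 and B3gat2 were detected on no array, and St8sia2 on 2 arrays. For the 6 genes the values belong to the gene, but which of its probes they belong to is not always settled, since many detection p-values in the deposited table stand beside the signal of a neighbouring probe. In B3gat1 this held for 6 of 6 probes and in B3gat3 for 4 of 5. After pairing p-values and signals anew within each gene, none of the 6 genes had a probe left whose p was out of place, and the largest gap was 0.00214. Probes are therefore named below by their brightness.

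B3gat1, the main HNK-1 glucuronyltransferase of the nervous system, was bright in crest and near background in mesoderm. The raw intensity of its brightest probe was 600.2, 1156 and 560.1 on crest replicates 1, 2 and 3, against 96.4, 215 and 104 on mesoderm replicates 1, 2 and 3. On the same arrays the median intensity of all probes lay between 99.8 and 131. After normalization the values were 8.80, 9.51 and 9.15 on the crest arrays, against 4.61, 6.36 and 4.60 on the mesoderm arrays. The groups did not overlap, and mesoderm replicate 2, the only mesoderm array on which the probe was detected, lay between the other mesoderm arrays and crest. The mean over 3 arrays was 9.15 ± 0.36 (SD) in crest, against 5.19 ± 1.01 (SD) in mesoderm, and they differed by 3.96 ± 0.47 (SE). The difference was 4.50 without mesoderm replicate 2. It rests partly on values near background, and was 2.23 without background correction.

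A second probe of B3gat1 went the same way at a lower level. It stood at 6.48, 6.82 and 7.08 on the crest arrays, all detected, against 4.70, 4.75 and 4.50 on the mesoderm arrays, none of them detected. Its mean over 3 arrays was 6.79 ± 0.30 (SD) in crest, against 4.65 ± 0.13 (SD) in mesoderm, so that crest was at least 2.78-fold higher. That lower limit sets each undetected array at the lowest detected value of that array. Mesoderm replicate 2, which stood apart on the brightest probe, did not stand apart on this one. The other 4 probes of B3gat1 were detected on no array, with differences between -0.10 and 0.05.

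The other HNK-1 glucuronyltransferase gene and the sulfotransferase gene gave no signal above background. B3gat2, which encodes the second HNK-1 glucuronyltransferase, stood at 4.62, 4.62 and 4.50 on the crest arrays, against 5.08, 4.57 and 4.85 on the mesoderm arrays. Its other probe lay between 4.39 and 4.58 on the 6 arrays. Chst10, the sulfotransferase gene, stood at 4.58, 4.56 and 4.67 on the crest arrays, against 4.66, 4.57 and 4.78 on the mesoderm arrays. Its second probe lay between 4.43 and 4.69. Crest and mesoderm overlapped for all of these but the dimmer B3gat2 probe, and all lay below 5.19, the lowest level detected on any array. A transcript below the reach of these probes cannot be told apart from an absent one, so no difference was detectable for either gene.

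B3gat3, of the proteoglycan stem, was detected on every array of both groups at 3 of its 5 probes, more than any other gene of the set. Its brightest probe stood at 7.73, 7.25 and 7.20 on the crest arrays, against 6.65, 7.94 and 7.83 on the mesoderm arrays. The mesoderm arrays spanned the whole range of the crest arrays. The mean over 3 arrays was 7.39 ± 0.29 (SD) in crest, against 7.47 ± 0.72 (SD) in mesoderm, which leaves -0.08 ± 0.36 (SE). The 2 other detected probes had the opposite sign, with differences of 0.58 and 0.33. The second probe differed most among mesoderm arrays, at 6.69, 7.30 and 5.41 on replicates 1, 2 and 3, against 6.55, 7.21 and 7.38 on the crest arrays. No direction is therefore given for B3gat3.

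**Figure D1:**
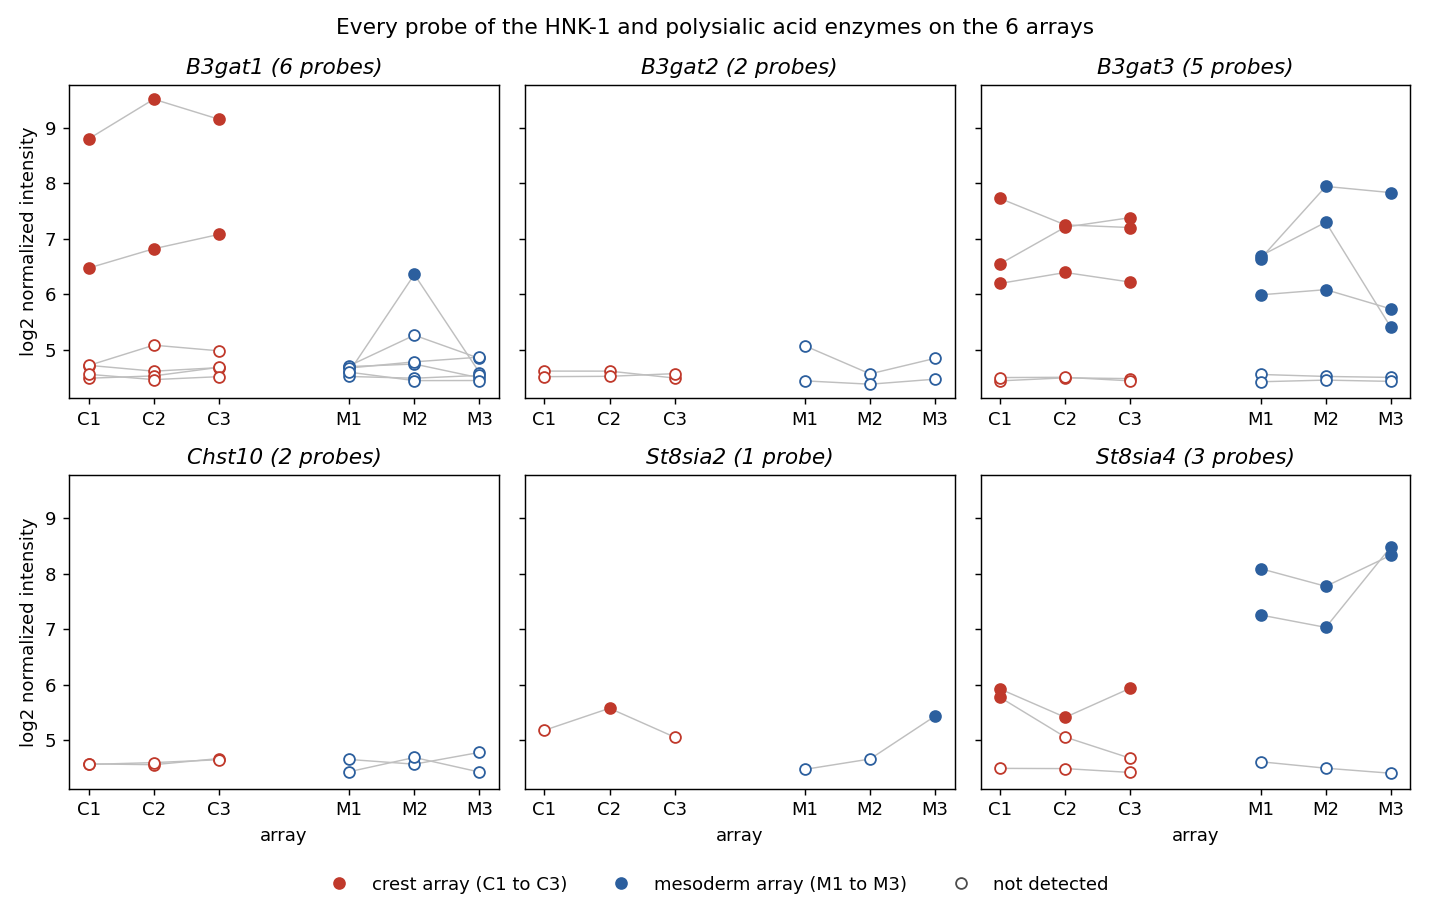
Log2 normalized intensity of each of the 19 probes (grey lines join the values of 1 probe within a group) on the crest arrays C1 to C3, in red, and the mesoderm arrays M1 to M3, in blue. Open points were not detected. The upper points of B3gat1 are in crest, from 8.80 to 9.51, and those of St8sia4 in mesoderm, up to 8.48, while Chst10 and B3gat2 have open points alone.

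Among the polysialic acid enzymes St8sia4 ran opposite to B3gat1. The raw intensity of its brightest probe was 165, 160.1 and 142 on crest replicates 1, 2 and 3, against 230, 394 and 330 on mesoderm replicates 1, 2 and 3. After normalization it stood at 5.92, 5.42 and 5.94 on the crest arrays, against 8.09, 7.77 and 8.33 on the mesoderm arrays. It was detected on all 6 arrays and the groups did not overlap. The mean over 3 arrays was 5.76 ± 0.30 (SD) in crest, against 8.06 ± 0.28 (SD) in mesoderm. The difference was -2.30 ± 0.25 (SE), -2.44 without mesoderm replicate 2 and -1.19 without background correction. A second probe gave 5.77, 5.06 and 4.68 on the crest arrays, of which replicate 1 alone was detected, against 7.25, 7.03 and 8.48 on the mesoderm arrays, a difference of -2.42. The third probe was detected on no array.

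St8sia2, the polysialyltransferase gene best known from embryonic brain, has 1 probe, and it stayed near background. It stood at 5.18, 5.58 and 5.06 on the crest arrays, against 4.48, 4.67 and 5.44 on the mesoderm arrays. Detection was reached on crest replicate 2 and mesoderm replicate 3, and the groups overlapped. The difference of 0.41 ± 0.29 (SE, n = 3 per group) was taken from the fit without the filter, since the gene was not tested. Leaving out mesoderm replicate 3 gave 0.73 and leaving out mesoderm replicate 1 gave 0.23.

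Among all genes tested by limma, 18.3% were called at an adjusted p under 0.05, 8.25% higher and 10.1% lower in crest, and in 37.2% crest and mesoderm arrays did not overlap, 19.6% with crest above and 17.6% with crest below mesoderm. Of the 3 genes of the set that were tested, 2 were on the called side and did not overlap, B3gat1 higher and St8sia4 lower in crest. Nothing is read from that count, because the set was chosen on the same contrast.

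The start regions of the genes that ran opposite are shown to let their sequences be compared. RefSeq promoter windows, 250 bases before to 50 after a start, were at hand for 5 of the 6 genes. Capitals mark each E-box, CANNTG, the letters bound by TWIST1 and other basic helix-loop-helix factors, read on both strands. The B3gat1 window is at chr9:26751312-26751611 on the plus strand and lies at a start inside the annotated gene. The St8sia4 window is at chr1:95667545-95667844 on the minus strand, and both are of build GRCm38.p6.
B3gat1: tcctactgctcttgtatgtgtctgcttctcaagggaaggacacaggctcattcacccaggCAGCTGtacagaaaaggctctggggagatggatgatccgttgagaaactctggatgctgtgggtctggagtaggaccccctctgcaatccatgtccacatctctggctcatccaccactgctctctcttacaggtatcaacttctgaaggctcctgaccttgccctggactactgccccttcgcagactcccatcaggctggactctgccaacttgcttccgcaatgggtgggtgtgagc
St8sia4: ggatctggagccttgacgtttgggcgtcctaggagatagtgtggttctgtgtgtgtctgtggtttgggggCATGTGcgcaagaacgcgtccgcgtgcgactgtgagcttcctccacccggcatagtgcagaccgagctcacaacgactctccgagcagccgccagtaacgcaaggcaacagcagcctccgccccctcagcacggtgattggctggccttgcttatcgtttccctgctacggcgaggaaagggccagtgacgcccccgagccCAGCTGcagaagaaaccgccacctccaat
B3gat1 had 1 match and St8sia4 had 2, and 72.3% of the 32851 windows of the table hold at least 1. The AP-2 motif GCCNNNGGC, held by 16.6% of windows, and the SOX motif AACAAT, held by 10.7%, had 0 matches in these windows on either strand. With 0 matches, an overlap of an E-box with either motif was not possible. These matches describe letters only.

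The value of B3gat1 on each array was set beside marker lists of cells that the sorts could hold. The list of dorsal neural tube and midbrain genes had 7 of its 10 members detected on each crest array, and 2, 5 and 3 on mesoderm replicates 1, 2 and 3. Its summed normalized intensity was 6814, 11953 and 8986 on crest replicates 1, 2 and 3, against 483, 818 and 371 on mesoderm replicates 1, 2 and 3. Each sum of this kind, here and below, runs over all measured genes of its list. Undetected genes add their background level to it, so a low sum is not a level of transcripts. The order of the sums was that of B3gat1, highest on crest replicate 2 and, within mesoderm, on replicate 2. En1, En2, Otx2 and Sox21 of this list were highest on replicate 2 of each group, but not every member was. Wnt3a was highest on crest replicate 3, at 9.90, 10.09 and 10.41 on the crest arrays. Sox2 was highest on mesoderm replicate 3, at 4.74, 5.01 and 5.62 on the mesoderm arrays. Pax2, Pax3 and Sox1 of this list were detected on no array. Markers of young neurons had a sum of 1654, 809 and 1776 on the crest arrays, against 519, 779.5 and 516 on the mesoderm arrays. Crest replicate 2, where B3gat1 was highest, had the lowest neuronal sum of the crest arrays, while within mesoderm that sum too was highest on replicate 2. Isl1, a gene of this list also known from heart and pharyngeal mesoderm, stood at 7.50, 6.64 and 7.34 on the crest arrays, against 7.63, 8.85 and 8.13 on the mesoderm arrays, a difference of -1.05 ± 0.36 (SE, n = 3 per group, limma adjusted p = 0.0801). Isl1 was the brightest gene of the list on each mesoderm array and gave the largest part of the sum there. Stmn2, at 6.61, 6.48 and 4.67 on the mesoderm arrays, was highest on replicate 1, and Elavl3, at 5.02, 5.35 and 4.54, on replicate 2. The neuronal genes Neurog1 and Neurod1 were detected on no array. The migratory crest list had 7 of its 9 measured members detected on each crest array and 5 to 6 on each mesoderm array, with a sum of 11893, 16171 and 11318 on the crest arrays, against 4597, 5061 and 3703 on the mesoderm arrays. This sum too was highest on replicate 2 of each group, but its members were not alike. On mesoderm replicates 1, 2 and 3 Sox10 stood at 7.19, 6.21 and 6.97 and Tfap2b at 5.37, 5.17 and 6.79, both lowest on replicate 2. Sox9, at 11.18, 11.30 and 10.93, and Ngfr, at 9.47, 10.17 and 8.96, were highest there. Among the crest arrays Sox10, Tfap2a, Sox9 and Ets1 were highest on replicate 2, and Tfap2b, Ednrb and Ngfr lowest. The part of these cells in the B3gat1 values was not tested. In sorted populations, fewer cells with a transcript and less of it in each cell cannot be told apart.

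**Figure D2:**
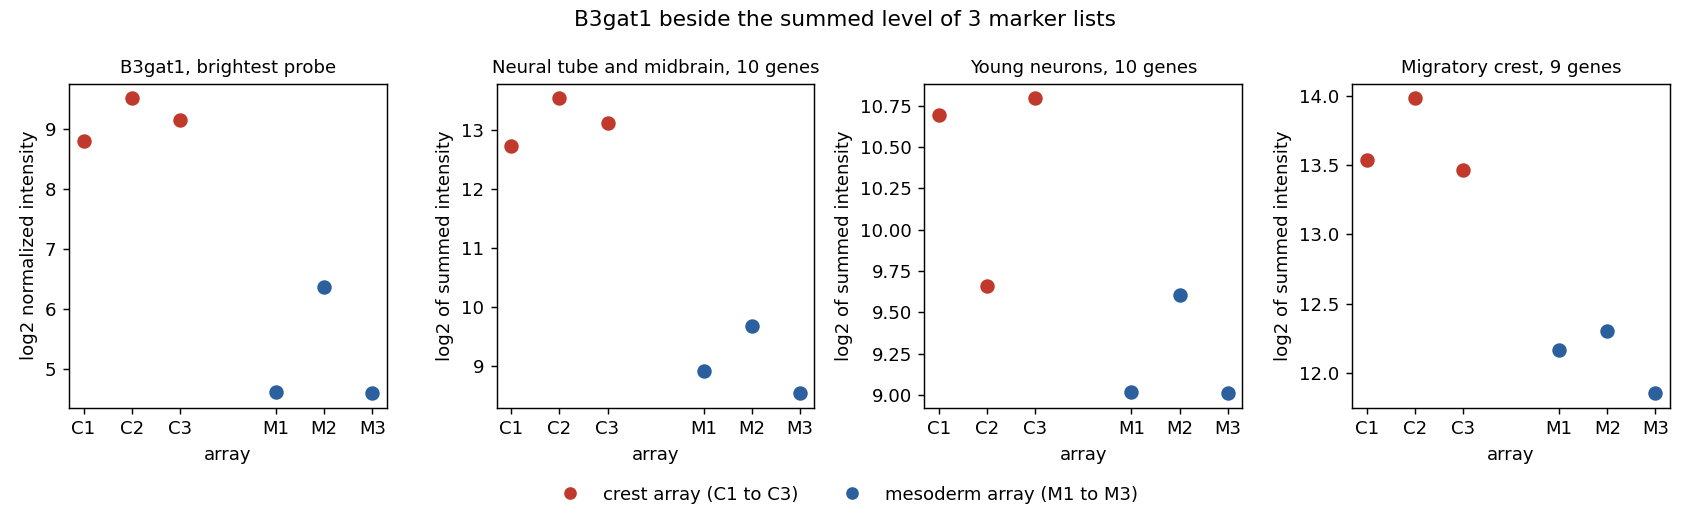
Brightest B3gat1 probe (log2 intensity, left) and the log2 of the summed intensity of 3 marker lists, on crest arrays C1 to C3 in red and mesoderm arrays M1 to M3 in blue; each axis has its own range. B3gat1, the neural tube list and the migratory crest list are highest on C2, at 9.51 for B3gat1, where the neuronal list is lowest among the crest arrays.

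St8sia4 was likewise set beside the lists that mark the mesoderm sort. Endothelial markers summed to 344, 317 and 365 on crest replicates 1, 2 and 3, against 28576, 22819 and 24520.2 on mesoderm replicates 1, 2 and 3. Between 1 and 3 of the 10 endothelial genes were detected on a crest array, against 9 to 10 on a mesoderm array. Blood markers summed to 3375, 348 and 2103 on the crest arrays, against 22928, 18784 and 26570 on the mesoderm arrays, and Ptprc was detected on no array. St8sia4 was lowest within mesoderm on replicate 2, as both of these sums and most of their tested members were. Esam was instead lowest on mesoderm replicate 3, at 12.80, 12.49 and 12.35 on the mesoderm arrays. Hba-x, at 10.61, 10.87 and 11.03, and Csf1r, at 6.41, 6.48 and 6.55, were lowest on mesoderm replicate 1. For markers of head mesoderm the sums were 426, 302 and 423 on the crest arrays, against 2839, 3828 and 2872 on the mesoderm arrays, and here replicate 2 was the highest. Lhx2, Myf5 and Meox1 of that list were detected on no array. Tcf15, alone of the tested genes of that list, was highest on mesoderm replicate 1, at 10.06, 9.08 and 9.02 on the mesoderm arrays. The part of these cells in the St8sia4 values was not tested.

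The other genes of both pathways were taken in 9 lists. Of 66 genes listed 65 are on the array and 42 were tested, of which 3 were higher and 2 lower in crest by limma, 11.9% against 18.3% of all genes tested. At an unadjusted p under 0.05 the count was 16 of 42, against 2989 of 9214 over all genes tested. With array weights 9 of the 42 were higher and 6 lower. The median log2 difference of the 42 was -0.01, against 0.07 over all genes. The sulfotransferases related to Chst10 had 0 of 3 called, the supply of the donors UDP-glucuronate and activated sulfate 0 of 4, and the enzymes that build and extend the N-glycan acceptor 0 of 9. The unadjusted p was under 0.05 for 1 gene in each of these 3 lists. In the donor list Ugdh and Slc35d1, of UDP-glucuronate synthesis and transport, did not pass the filter, so nothing is said of these steps. Sialic acid synthesis and transport had 0 of 3 called, with 1 gene at an unadjusted p under 0.05, and the remaining alpha-2,8-sialyltransferases 0 of 1, with 0 genes at that level. In the 4 lists with a called gene that level was reached by 3 of 5 enzymes of the proteoglycan stem, 4 of 7 alpha-2,3- and alpha-2,6-sialyltransferases, 1 of 3 sialidases and 4 of 7 carriers.

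Among the carriers of the sugars, 1 of 7 tested was called. That was Nrcam, a neural adhesion molecule of the immunoglobulin superfamily, at 7.37, 6.99 and 7.37 on the crest arrays, against 5.15, 4.93 and 4.81 on the mesoderm arrays. These are values of its brightest probe, which was detected on no mesoderm array and was at least 3.80-fold higher in crest (limma adjusted p = 2.02e-04). That probe passed the filter through its 3 crest arrays alone, so this p is given as a description. The fitted difference of 2.28 was 0.92 without background correction. A dimmer probe, detected on 5 of the 6 arrays, did not show this difference. It stood at 5.28, 5.35 and 5.65 on the crest arrays, against 5.41, 5.39 and 5.31 on the mesoderm arrays, a difference of 0.06. Without crest replicate 1, 2 or 3 the brightest probe no longer passed the filter and the dimmer probe gave differences between -0.053 and 0.13. For 1 of the 4 Nrcam probes, not the brightest, the detection p could not be paired with a signal of the gene. Ncam1, the main carrier of polysialic acid, stood at 6.89, 6.69 and 6.62 on the crest arrays, against 6.01, 6.48 and 6.88 on the mesoderm arrays. The groups overlapped, and the difference of 0.28 ± 0.27 (SE, n = 3 per group) had a limma adjusted p of 0.523. The 2 other detected Ncam1 probes gave 0.33 and 0.06. The carrier genes L1cam, Chl1, Mag, Tnc, Tnr and Ptprz1 did not pass the filter.

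The proteoglycan stem, to which B3gat3 belongs, held the largest difference outside the set toward mesoderm among these lists. B3galt6 encodes the galactosyltransferase that acts 1 step before B3gat3. It stood at 5.37, 5.41 and 5.25 on the crest arrays, against 7.44, 8.40 and 6.94 on the mesoderm arrays. Crest was lower on every array, by -2.25 ± 0.35 (SE, n = 3 per group, limma adjusted p = 0.00285), with 2 of 3 crest arrays detected, and the adjusted p was at most 0.0197 with 1 array left out. The difference was -1.03 without background correction, -1.08 with the authors' values and -1.62 with an offset of 50. Pxylp1, which encodes a phosphatase that removes the phosphate from the xylose of the stem, went the other way. It stood at 10.20, 10.16 and 10.35 on the crest arrays, against 8.89, 9.42 and 9.65 on the mesoderm arrays, and crest was higher by 0.91 ± 0.25 (SE, n = 3 per group, limma adjusted p = 0.0372). With 1 array left out the adjusted p lay between 0.0318 and 0.149, under the threshold only without mesoderm replicate 3, and it was 0.0654 when no detection filter was used. With the detection p as deposited, other probes stood for these genes, and B3galt6 gave 0.11 and Pxylp1 -0.0315. Of the 5 genes tested in this list those were the 2 called.

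Among genes that add or remove single sialic acids, 2 were called. St6gal1, which encodes the enzyme that caps N-glycans with alpha-2,6-linked sialic acid, stood at 10.93, 11.70 and 11.09 on the crest arrays, against 10.44, 10.25 and 10.15 on the mesoderm arrays, a difference of 0.96 ± 0.26 (SE, n = 3 per group, limma adjusted p = 0.0347). Neu1, the lysosomal sialidase gene, stood at 8.43, 7.98 and 8.34 on the crest arrays, against 8.89, 9.09 and 9.38 on the mesoderm arrays, a difference of -0.87 ± 0.24 (SE, limma adjusted p = 0.0361). The groups overlapped in neither gene. With 1 array left out the adjusted p of St6gal1 lay between 0.0446 and 0.0964, under the threshold only without crest replicate 1, and it was 0.0694 when no detection filter was used. For Neu1 it lay between 0.0654 and 0.112, above the threshold in each of the 6 cases, and it was 0.329 under median scaling, where the difference was -0.53. They were 1 of 7 sialyltransferases and 1 of 3 sialidases tested.

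**Figure D3:**
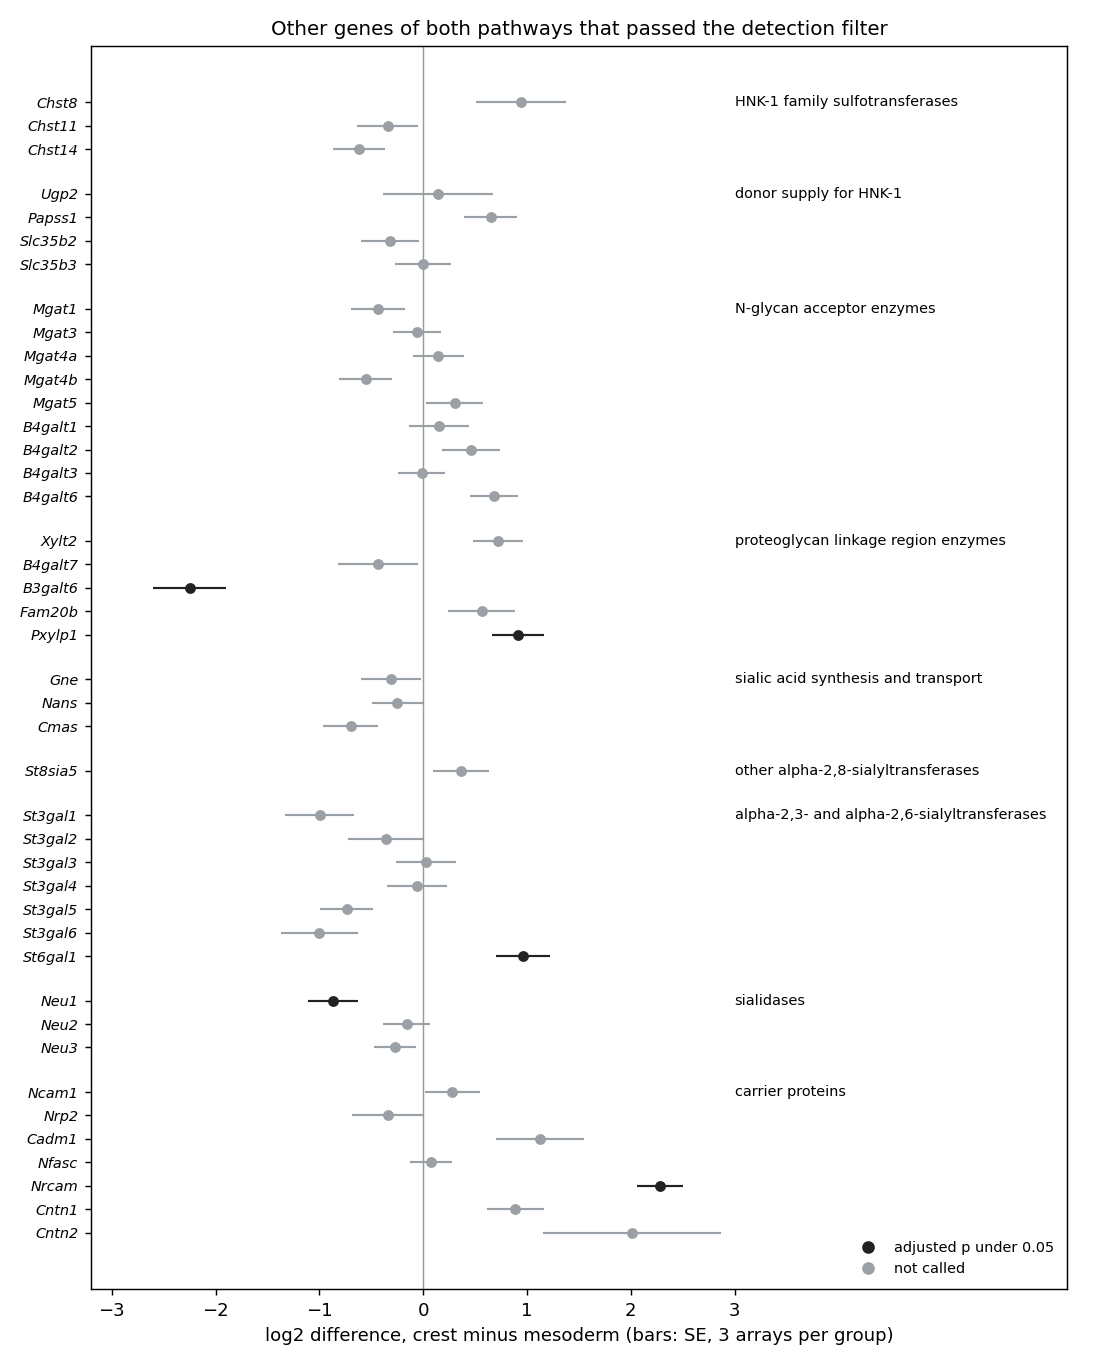
Log2 difference, crest minus mesoderm, of the 42 tested genes of the 9 lists, with the standard error of the limma fit (3 arrays per group). Black points passed an adjusted p under 0.05. Most lie within 1 log2 unit of 0, with Nrcam and Cntn2 farthest toward crest and B3galt6, at -2.25, farthest toward mesoderm.

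The genes whose values followed B3gat1 most closely over the 6 arrays were ranked by Pearson's r among 9213 other tested genes. They were Ildr2 (0.998), Spint1 (0.998), Lrba (0.997), Vstm2b (0.996) and Tctn2 (0.996), and 287 genes had an r over 0.95. With 2 groups of 3 arrays such a value mostly reflects the gap between the groups. All 5 had in common with B3gat1 that mesoderm replicate 2 was the highest mesoderm array and crest replicate 2 the highest crest array. A ranking by r on these same arrays favours such genes, so nothing is read from it. Spint1, which encodes a membrane-bound protease inhibitor of epithelia, stood at 7.60, 8.42 and 7.82 on the crest arrays, against 4.45, 5.93 and 4.47 on the mesoderm arrays, where it too was detected on replicate 2 alone.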

How the data were processed

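The table of raw values, deposited by the authors, gives for each array a probe's signal intensity, linear and with its background still in it, and, per the file headers, a detection p-value. The deposited series matrix holds log2 values by the authors. Its sorted columns lay within 0.00571 of the mean of the sorted log2 signals, as after quantile normalization, and it was used as an alternative. RNA was amplified and labelled with biotin as cRNA for Illumina mouse arrays, per the labels' protocols, a method that reads transcripts near the poly(A) tail. All arrays lay on 1 BeadChip with crest and mesoderm at separate positions, so position and cell type cannot be told apart. The labels give no other batch.

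In 12273 of 45281 probes (27.1%) the deposited detection p lay more than 0.06 from that of probes of like signal on some array. It was therefore re-read as a running median over 101 probes ranked by signal. Background was corrected by normexp in limma 3.58.1 (R 4.3.3), which models normal background plus exponential signal, the background being taken from these p-values, with an offset of 16, then quantile normalized. Of 34885 probes with 1 symbol, 13057 passed the filter and left 9214 genes. limma compared crest with mesoderm, two-sided, with Benjamini-Hochberg adjustment over all genes tested. Differences are crest minus mesoderm. The number of arrays limits the precision. The procedure was tested on simulated data. The 6 genes and all lists were chosen with earlier results of these data known. Named are the 6 genes, every pathway gene called and Ncam1, the 5 genes most like B3gat1, the check markers and Twist1. Genes named besides these are members of a list that were detected on no array or not tested, and some tested genes. The latter are Isl1, Cntn2, Chst8, Stmn2, Elavl3, Dcx, Tfap2a, Ednrb, Sox9, Ets1, Ngfr, Wnt3a, Sox2, En1, En2, Otx2 and Sox21. Esam, Hba-x, Csf1r, Tcf15, St3gal1, St3gal5 and St3gal6 also belong here. All of these were chosen after their values were seen. The current annotation changed 0 symbols. Promoter windows are RefSeq's (GRCm38.p6).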

Additional observations from a re-analysis of the deposited data

How the results depend on the processing

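The signs of the differences of B3gat1, B3gat2, St8sia2 and St8sia4 were the same under all 15 alternatives. B3gat2 was detected on no array and St8sia2 stayed near background, so a kept sign alone is not read as a difference. B3gat1 differed by 2.23 without background correction, 3.04 with an offset of 50 and 2.32 with the authors' values. The mean of the 2 of its 6 probes that passed the filter gave 3.05, with its undetected probes left out. With the deposited detection p, where its brightest probe failed the filter, it differed by 2.14. St8sia4 differed by -1.19 without background correction, -1.77 with an offset of 50 and -1.24 with the authors' values. Without background correction, or with a larger offset, a constant remains in every signal, which shrinks differences of dim probes. With 1 array left out, B3gat1 ranged from 3.69 to 4.50, St8sia4 from -2.44 to -2.09, St8sia2 from 0.23 to 0.73, B3gat2 from -0.36 to -0.14, Chst10 from -0.11 to -0.01 and B3gat3 from -0.50 to 0.15. Over the other alternatives B3gat3 ranged from -0.08 to 0.33. Over all genes, 760 were higher and 927 lower in crest. The lower count was 597 under median scaling, which also moved the median of all genes from 0.07 to 0.30, and the higher count 1463 with array weights. With 1 array left out the counts were 237 to 718 and 433 to 758, with fewer arrays and so less power. Of the pathway genes 3 were higher and 2 lower. The higher count was 1 without a filter and 9 with array weights, and the lower count 6 with array weights and 1 under median scaling and with the deposited detection p. With 1 array left out they were 0 to 3 and 1 to 2. With the deposited detection p, B3galt6 gave 0.11 and Pxylp1 -0.0315, both from another probe, and with 1 array left out Nrcam ranged from -0.053 to 2.43, negative without crest replicate 3. In that alternative the background fit kept the re-read p-values, since with the deposited ones the log2 values collapsed to an SD of 0.00653, against 2.01. With the replicate number as a block 917 genes were higher and 1029 lower, and 5 pathway genes were higher. Deviations of same-numbered arrays correlated at 0.12, 0.32 and 0.02, and those of arrays with different numbers at -0.33 to 0.20. The pair of replicates 2 was the highest of all. The numbers were not taken to pair the arrays, though these few values do not settle whether they do. Intensity near background limits what can be said of Chst10, B3gat2 and St8sia2.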

Other observations

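Cntn2, a carrier of HNK-1 that marks young neurons and their axons, was chosen here after its values were seen. It stood at 9.27, 5.88 and 8.81 on crest replicates 1, 2 and 3, against 5.90, 7.05 and 4.97 on mesoderm replicates 1, 2 and 3. Crest replicate 2 lay within the range of the mesoderm arrays, and the difference of 2.01 ± 0.86 (SE, n = 3 per group) had a limma adjusted p of 0.145. The same crest array had the lowest values of that group for the neuronal genes Stmn2 (8.16, against 9.25 and 9.57), Elavl3 (7.07, against 8.46 and 8.41) and Dcx (6.19, against 7.45 and 7.71). Chst8, a sulfotransferase gene of the family of Chst10, was likewise lowest on crest replicate 2 among the crest arrays, at 8.78, 7.17 and 8.83 on the crest arrays, against 7.15, 7.17 and 7.64 on the mesoderm arrays (0.94 ± 0.43, limma adjusted p = 0.176). B3gat1 had its highest value on that array.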
